A study of Mus musculus with 12 samples.

Results

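Core promoter peaks are stretches of open chromatin lying within 1 kb of an annotated gene start, and they were taken as every peak with the authors' annotation for a promoter up to that distance. They number 23358 of the 139999 peaks tested in the study, 16.7% of the total, and belong to 14421 genes. Of those genes 8759 had 1 such peak, 3664 had 2 and 1998 had 3 or more, with Septin9, which encodes a cytoskeletal septin, holding the most at 12. A start lay inside 13477 of the peaks (57.7%), while 5175 were downstream of their start and 4706 upstream. Nearly all (99.8%) were 400 bp wide.

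Open chromatin was assayed with ATAC-seq, a method in which the Tn5 transposase cuts and tags accessible DNA, on 12 libraries labelled as bone marrow derived macrophages of male C57BL/6J mice aged 8 weeks. Diabetes was induced by streptozotocin at 42 to 45 mg/kg on 5 days, each after a 12 hours fast, with blood glucose above 16.9 mmol/L as the criterion and 6 weeks of hyperglycaemia before marrow was taken. The first phase holds diabetic and healthy cells (the time of collection is not stated), the rest phase diabetic-trained and untrained cells kept in 5 mmol/L glucose and M-CSF for 7 days, and the second phase the same types of cells after 16 more hours under 100 ng/mL LPS plus 10 ng/mL IFN-γ. Each of the 6 groups has 2 libraries. The labels do not say whether these came from separate animals, so p-values measure how much libraries differ, and that may be technical. The column headers do not say which group is the diabetic one. Within each phase the groups are therefore called A and B after the column order, with libraries A1, A2, B1 and B2, and A in one phase may be a different treatment from A in another.

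A core promoter is where the general transcription factors and RNA polymerase assemble, and the nucleosome just upstream of an active start is usually displaced, which Tn5 detects as open DNA. Promoters rich in CpG dinucleotides, typical of housekeeping genes, tend to be open in most cell types. CpG-poor promoters more often belong to genes of 1 cell type or to inducible genes. In macrophages, PU.1 marks the lineage, AP-1 and NF-kB act on inflammatory genes, and interferon acts through STAT and IRF proteins at the gamma-activated site and the interferon-stimulated response element.

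The sequences below are the 250 bases before the RefSeq start (GRCm38.p6 table, the assembly named mm10) of 8 core promoters on which the results turn, printed 5′ to 3′ on the strand of the gene. Of the 23358 peaks, 9340 overlapped a RefSeq promoter window of their own gene. Acsl1, a long-chain acyl-CoA synthetase named in the study's title, lies at chr8:46470787-46471036 (plus strand), and its capitals mark 4 GC boxes (GGGCGG), at -157, -123, -90 and -18 bp from the start. Pglyrp1, which encodes a peptidoglycan recognition protein of neutrophil granules, had the largest fall from the first to the rest phase among the genes named by size. It lies at chr7:18884440-18884689 (plus strand), and its capitals join an NF-kB site, the only one shown here, and a GC box that overlaps it, both on the minus strand. S100a8, a neutrophil calgranulin, lies at chr3:90668821-90669070 (plus strand), with a TATA box (TATAAA) at -30 bp and a PU.1 site (GAGGAAGT, minus strand) at -172 bp. Fos, an immediate early gene and AP-1 subunit, lies at chr12:85473640-85473889 (plus strand), with a TATA box at -33 bp and a GC box at -74 bp.
Acsl1: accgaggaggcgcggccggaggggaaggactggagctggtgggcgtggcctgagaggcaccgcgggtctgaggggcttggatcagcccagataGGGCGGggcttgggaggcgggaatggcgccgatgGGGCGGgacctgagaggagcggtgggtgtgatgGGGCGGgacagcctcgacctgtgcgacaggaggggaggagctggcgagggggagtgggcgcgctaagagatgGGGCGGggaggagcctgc
Pglyrp1: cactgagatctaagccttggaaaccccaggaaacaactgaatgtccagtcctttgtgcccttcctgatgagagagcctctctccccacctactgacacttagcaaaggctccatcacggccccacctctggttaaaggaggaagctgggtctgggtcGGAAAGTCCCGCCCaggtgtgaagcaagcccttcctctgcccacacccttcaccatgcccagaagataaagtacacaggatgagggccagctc
S100a8: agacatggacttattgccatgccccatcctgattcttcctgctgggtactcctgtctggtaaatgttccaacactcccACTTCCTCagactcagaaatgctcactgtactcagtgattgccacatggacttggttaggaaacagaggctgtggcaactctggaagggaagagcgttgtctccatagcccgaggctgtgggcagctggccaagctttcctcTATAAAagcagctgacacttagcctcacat
Fos: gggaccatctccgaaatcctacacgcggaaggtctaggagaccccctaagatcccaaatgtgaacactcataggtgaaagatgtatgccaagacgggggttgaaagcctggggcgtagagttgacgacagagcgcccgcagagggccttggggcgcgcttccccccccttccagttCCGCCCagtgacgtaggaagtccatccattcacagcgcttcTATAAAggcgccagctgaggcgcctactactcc

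The next 4 promoters are shown for the second phase. Irf1, an interferon regulatory factor, lies at chr11:53769764-53770013 (plus strand) and has a gamma-activated site (TTCNNNGAA) at -90 bp. Gbp5, an interferon-induced GTPase, lies at chr3:142496684-142496933 (plus strand), with gamma-activated sites at -245 and -52 bp and an interferon-stimulated response element (GAAA repeated after any 2 bases, minus strand) at -165 bp. Isg15, a ubiquitin-like modifier, lies at chr4:156200819-156201068 (minus strand), where 3 overlapping matches to the response element start at -78, -72 and -66 bp. Pld4, an endolysosomal exonuclease of the phospholipase D family, lies at chr12:112760405-112760654 (plus strand) and has a GC box at -46 bp. It had the largest deposited fold among the genes named for the second phase. Both strands were searched for each motif, and capitals mark only the motifs named here.
Irf1: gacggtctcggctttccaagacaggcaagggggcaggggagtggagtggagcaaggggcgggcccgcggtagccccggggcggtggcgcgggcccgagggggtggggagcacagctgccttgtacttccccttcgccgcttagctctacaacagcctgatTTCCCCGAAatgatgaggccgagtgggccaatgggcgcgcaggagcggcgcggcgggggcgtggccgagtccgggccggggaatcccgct
Gbp5: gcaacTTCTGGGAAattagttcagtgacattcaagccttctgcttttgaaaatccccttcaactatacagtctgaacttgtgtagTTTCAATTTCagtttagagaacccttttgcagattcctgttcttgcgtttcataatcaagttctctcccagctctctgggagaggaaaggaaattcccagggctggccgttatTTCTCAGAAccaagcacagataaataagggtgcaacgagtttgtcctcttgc
Isg15: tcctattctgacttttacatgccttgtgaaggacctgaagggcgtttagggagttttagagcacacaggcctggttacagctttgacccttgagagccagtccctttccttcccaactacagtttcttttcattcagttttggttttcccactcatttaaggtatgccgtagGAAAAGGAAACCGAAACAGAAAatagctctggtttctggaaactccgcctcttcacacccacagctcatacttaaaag
Pld4: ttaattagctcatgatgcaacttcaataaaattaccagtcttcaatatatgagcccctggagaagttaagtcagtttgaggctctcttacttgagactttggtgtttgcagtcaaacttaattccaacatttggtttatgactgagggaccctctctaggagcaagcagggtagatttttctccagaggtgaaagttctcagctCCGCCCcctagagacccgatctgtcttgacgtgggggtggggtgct

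Reads were recovered for every library in 23341 of the core promoter peaks, and a level below is log2 (reads + 1) after quantile scaling over the 12 libraries. Reads in peaks ran from 3832347 (second-phase B1) to 18617444 (rest-phase A1) per library, and the median core promoter peak held 28 to 150 reads against 8 to 49 in other peaks. The first-phase pair A1 and A2 was nearly as alike as sampling alone allows (ratio of variances 1.13, against 2.07 to 15.7 in the other 5 pairs) and was counted as 1 sample between phases. First-phase B2 stood apart from the other first-phase libraries at B cell promoters: Cd79a, a subunit of the B cell receptor, was at level 5.90 there and at 7.78 to 8.04 in the other 3. In the second phase, A2 and B2 had raised promoters at most interferon and inflammatory genes and A1 and B1 at fewer of them. The labels give the same stimulation to all 4 libraries. In A1 and B1, 6 and 7 of 41 interferon promoters were above every rest-phase library, and 11 and 12 of 37 inflammatory promoters. Second-phase A1 correlated at 0.99 (Spearman) with rest-phase A1 over core promoter peaks. Whether A1 and B1 were stimulated, or stand in the columns of another phase, was not tested, and every second-phase value below carries this limit. Results that rest on these libraries are given with the values of each library.

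The labelled cell type was compared with marker promoters. The macrophage promoters Csf1r (the M-CSF receptor) and Adgre1 (F4/80) were at levels 7.05 to 7.71 and 5.78 to 7.18 in the first phase, against 7.74 to 8.20 and 6.95 to 7.42 in the rest phase. Summed over the 27 macrophage promoters, reads per 1000000 reads in peaks ran from 508 to 686 in the first phase, 761 to 811 at rest and 582 to 767 in the second phase, although 6 of the 27 fell from the first to the rest phase (below). Promoters of other marrow cells were also open in the first phase. S100a9, the partner of S100a8, was at 8.62 to 9.67 in the first phase, against 1.94 to 3.38 at rest, and Cd79a was at 5.90 to 8.04 and at 2.77 to 4.65. Summed over the neutrophil list, 16 of 18 genes had a core promoter peak, and their summed reads per 1000000 reads in peaks ran from 247 to 580 in the first phase, 52.4 to 68.7 at rest and 57.2 to 91.5 in the second phase. The B cell list (15 of 17 genes) ran from 83.0 to 257, 64.2 to 74.2 and 40.7 to 72.5. Peaks listed at 0 in some group were dropped beforehand, so a marker without reads in the first phase could not appear here. In bulk chromatin, fewer cells of a type and less accessibility per cell cannot be told apart.

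Core promoters took the largest share of reads in the first phase. Their share of reads in peaks was 57.8%, 59.0%, 58.9% and 48.8% in A1, A2, B1 and B2 of the first phase, 33.4%, 35.0%, 40.7% and 41.9% at rest and 32.7%, 37.7%, 27.1% and 35.0% in the second phase. Every rest-phase library was below every first-phase library, whereas the second and rest phases overlapped. The Wilson 95% intervals, which cover counting error only, were narrow at this depth (58.9% to 59.0% for first-phase B1).

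Between phases, the mean share was 55.4% ± 5.71 (SD, n = 3) in the first phase and 37.7% ± 4.21 (SD, n = 4) in the rest phase, lower by 17.6 percentage points. The 2-sided exact permutation test gave p = 0.0286, the smallest that the 35 splits allow, and 0.0571 after Benjamini-Hochberg adjustment over the 2 comparisons of shares. From the rest to the second phase (33.1% ± 4.50, SD, n = 4) the share was lower by 4.62 points, which did not exceed the spread between libraries (exact permutation p = 0.2). Within the rest phase, group A (33.4% and 35.0%) lay below group B (40.7% and 41.9%) without overlap. With 2 libraries against 2 the exact permutation test cannot go below 0.333.

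**Figure D1:**
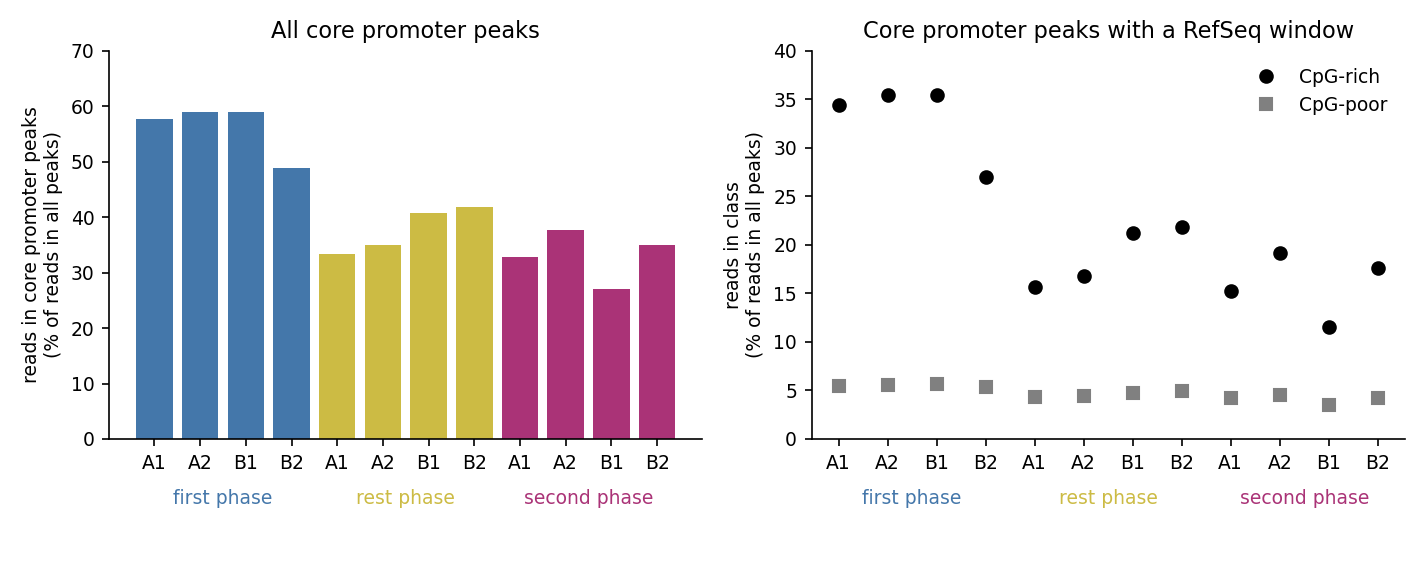
Left, bars give the reads in core promoter peaks as a percentage of reads in all peaks for each of the 12 libraries, by phase. Right, the same for core promoter peaks that overlap a RefSeq window, split into CpG-rich (circles) and CpG-poor (squares). First-phase shares lie between 48.8% and 59.0% and rest-phase shares between 33.4% and 41.9%.

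The classes of promoter differed in how much of that share they carried. A RefSeq window of 300 bases (250 before to 50 after the start) was called CpG-rich at a GC content of at least 50% and an observed over expected CpG ratio of at least 0.6. CpG-rich windows made up 68.1% of matched core promoter peaks and 33.5% of all 32851 windows. CpG-rich peaks (n = 6362) took 34.4%, 35.5%, 35.5% and 27.0% of reads in peaks in the first phase, 15.6%, 16.8%, 21.3% and 21.9% at rest and 15.3%, 19.2%, 11.6% and 17.6% in the second phase. CpG-poor peaks (n = 2978) took 5.40% to 5.69%, 4.31% to 4.96% and 3.52% to 4.54%. Both classes were lower in every rest-phase library than in every first-phase library.

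The level depended on position within the 1 kb limit. Peaks centred 100 to 200 bp upstream of the start had the highest median level, 8.19 in the first phase, 7.78 at rest and 7.54 in the second phase (n = 3710 peaks). In the bin centred 950 bp upstream the medians were 4.92, 4.98 and 4.85 (n = 455). The phases thus lay apart near the start and close together at the upstream edge. In the authors' deposited table, peaks in the outermost 200 bp inside the limit (n = 1773) had median log2 means of 4.40 and 4.37 (first-phase A and B), 5.97 and 4.53 (rest) and 5.68 and 4.38 (second). Peaks in the first 200 bp outside the limit (n = 1622) had 4.30 and 4.28, 5.89 and 4.44, and 5.56 and 4.37 in the authors' deposited table.

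**Figure D2:**
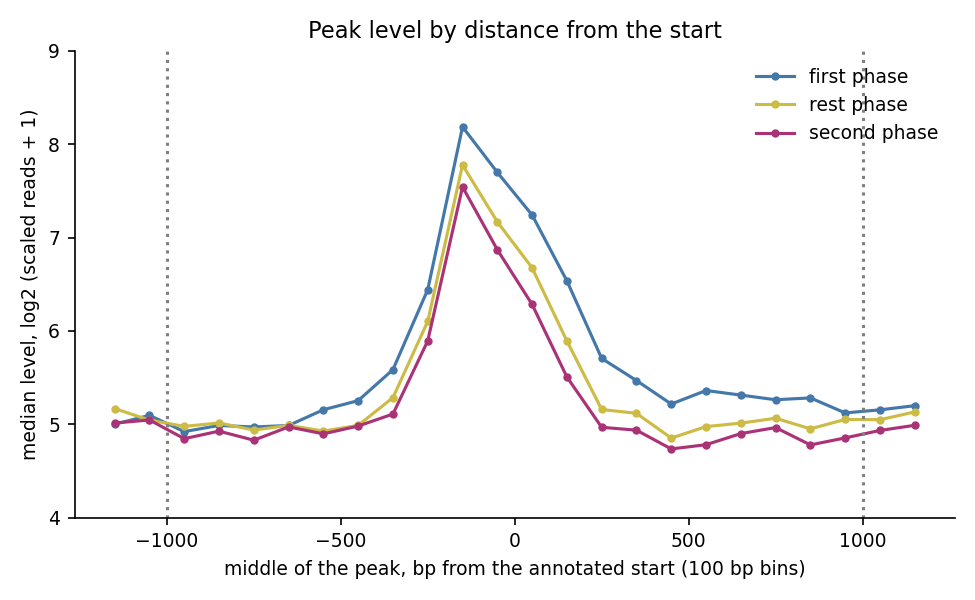
Median level (log2 of scaled reads + 1) of core promoter peaks by the distance of the peak's middle from the annotated start, in bins of 100 bp, for each phase. Dotted lines mark the 1 kb limit, which applies to the nearest edge of a peak. All 3 curves peak in the bin centred at -150 bp.

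The level varied less over the 12 libraries at core promoters than at other peaks. The median range over the 12 libraries was 1.86 on the log2 level scale for core promoter peaks and 2.30 for other peaks, and 14.4% against 2.21% varied by less than 1. Core promoter peaks also held more reads (above), and the part of depth in this was not tested. Peaks with RefSeq starts on both strands (n = 973) varied by less than 1 in 35.6% of cases, peaks with a start on 1 strand (n = 7783) in 24.2% and peaks without one (n = 14585) in 7.81%. These classes also differed in median level, at 8.54, 7.92 and 5.70 in first-phase A1, and the part of level in this was not tested. The highest mean levels belonged to Hdgfl2 (10.6), Mtmr4 (10.6), Sp1 (10.6), Khsrp (10.6) and Osbp (10.6). Sp1 encodes the factor that binds GC boxes, Khsrp a splicing and RNA decay factor and Osbp an oxysterol-binding protein. The lowest belonged to Plac1 (2.60), Thoc2 (2.62) and the vomeronasal receptor Vmn2r30 (2.69).

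The first question was whether diabetic and control cells differed at core promoters within a phase. In the first phase, the authors' deposited table called 0 of the 23358 core promoter peaks at an adjusted p under 0.05, as it did over all peaks (background 0%), while 185 were under 0.05 unadjusted. The limma test on recovered reads also called 0, with 1142 under 0.05 unadjusted. With limma, simulated 4-fold changes were called in 33% of cases for this phase and 2-fold changes in 0%, at an assumed dispersion of 0.05. Sizes in between, the authors' test and the larger spread of first-phase pair B (variance ratio 6.97) were not simulated.

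In the rest phase, the authors' deposited table called 7544 core promoter peaks higher in A and 8 higher in B. That is 32.3%, below the background of 39.8% over all 139999 peaks, of which 39.7% were higher in A and 0.0929% higher in B. Rest-phase A libraries held 18617444 and 16002834 reads in peaks and B libraries 5459236 and 8775958, and the median deposited fold over all peaks was 1.04 on the log2 scale. With quantile scaling, limma called 928 core promoter peaks higher in A and 3004 higher in B (16.8%, background 12.0%, with 6.48% higher in A and 5.56% higher in B), around a median of -0.02 over all peaks and -0.16 over core promoters. The direction of most calls thus depends on the scaling, and the genes described next are those whose direction was the same in both tests unless stated. Without any 1 library, limma with quantile scaling called 0 core promoter peaks in this phase.

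Among the genes with the largest folds, Smad3, a transducer of TGF-β signals, had a peak 577 bp upstream of its start at levels 7.74 and 7.03 in rest-phase A and 4.91 and 5.22 in B. In the authors' deposited table its log2 fold was 3.01 (adjusted p = 2.53e-05), and limma gave 2.32 ± 0.26 (SE, adjusted p = 0.00211). The acyl-CoA synthetase Acsbg1 was at 8.41 and 7.92 in A against 6.41 and 6.17 in B, with a log2 fold of 2.73 in the authors' deposited table (adjusted p = 5.70e-05). The groups did not overlap for either gene. The others were Gm20125 (2.91 in the authors' deposited table), the Rac exchange factor Tiam1 (2.85), Xkr5 (2.83), Dmwd (2.79), the autophagy receptor Nbr1 (2.71), the histone gene H3c2 (2.67), Mindy4 (2.65) and Ms4a1 (2.60), which encodes the B cell antigen CD20. Only Iqcn was called higher in B at or above the median level, with -2.04 in the authors' deposited table and levels of 4.71 and 3.94 in A against 8.10 and 8.28 in B.

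Genes of fatty acid synthesis and activation were measured at 29 core promoters. The authors' deposited table called 14 higher in rest-phase A and 0 lower (background 39.8% of all peaks), and limma with quantile scaling 5 higher and 2 lower. Over core promoter peaks the authors' deposited table called 32.3% higher, and limma with quantile scaling 3.98% higher and 12.9% lower. Srebf1, the regulator of lipogenic genes, was at 9.14 and 9.06 in A and 7.81 and 8.21 in B. Its log2 fold was 1.61 in the authors' deposited table (adjusted p = 0.0135), and limma gave 0.91 (adjusted p = 0.00382). The desaturase gene Scd1 was at 7.24 and 6.65 in A against 6.03 and 6.01 in B, with 2.06 in the authors' deposited table (adjusted p = 0.00210). Scd2 was at 8.52 and 8.73 in A and 7.63 and 7.76 in B. For these 3 genes each A library was above each B library. Plin2, a lipid droplet protein, and Acss2, an acetyl-CoA synthetase, were the 2 lower by limma (-0.66 and -0.32), with adjusted p-values of 0.343 and 0.547 in the authors' deposited table.

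The Acsl1 promoter peak, chr8:46470652-46471051, covered the start and was among the more open ones. Its level was 9.82, 9.82, 9.76 and 9.65 in the first phase, 9.28, 9.42, 9.81 and 9.51 at rest and 9.53, 9.96, 9.66 and 9.66 in the second phase, in the order A1, A2, B1 and B2. In each phase the highest and lowest libraries differed by less than 1. The log2 fold of A over B in the authors' deposited table was 0.50 in the rest phase (adjusted p = 0.418) and 1.05 in the second phase (adjusted p = 0.0709). With quantile scaling limma gave the opposite sign in the rest phase, -0.27 ± 0.10 (SE, adjusted p = 0.108). The rest phase over the first gave -0.25 ± 0.14 (SE) with limma (adjusted p = 0.186), so no difference passed the test.

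Macrophage core promoters (n = 27) were called higher in A for 15 and lower for 0 in the authors' deposited table, and for 7 and 3 by limma with quantile scaling. Over all peaks the shares were 39.7% higher in the authors' deposited table, and 6.48% higher and 5.56% lower by limma. Over core promoter peaks they were 32.3%, and 3.98% and 12.9%. C1qb, a chain of complement C1q, was at 8.73 and 8.63 in A against 7.17 and 7.36 in B, with a log2 fold of 1.98 in the authors' deposited table (adjusted p = 0.00367). The mannose receptor gene Mrc1, of the alternative activation list, was at 5.94 and 6.08 in A against 4.35 and 4.67 in B, with 2.32 in the authors' deposited table (adjusted p = 0.000628). Both were higher in A with limma too. Cd14, the LPS co-receptor, had a log2 fold of 1.42 in the authors' deposited table (adjusted p = 0.0226).

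Counts of immediate early genes, which respond to stimuli within minutes, and of ribosomal protein genes depended on the scaling. Of 28 immediate early promoters the authors' deposited table called 2 higher in A and 0 lower, whereas limma with quantile scaling called 0 higher and 22 lower in A, and limma with the authors' scaling 2 higher and 0 lower. Fos was at 7.69 and 8.07 in A against 9.49 and 9.55 in B, with a log2 fold of -0.28 in the authors' deposited table (adjusted p = 0.654) and -1.39 ± 0.12 (SE) with limma (adjusted p = 0.000913). Zfp36, which promotes decay of cytokine mRNAs, was at 7.87 and 7.94 in A and 9.34 and 9.58 in B. Of 63 ribosomal protein promoters the authors' deposited table called 1 higher and 0 lower, limma with quantile scaling 0 higher and 35 lower, and limma with the authors' scaling 1 higher and 1 lower. With total scaling limma called 0 immediate early promoters higher and 24 lower, and 0 ribosomal protein promoters higher and 44 lower. Over all core promoter peaks limma with quantile scaling called 3.98% higher and 12.9% lower. The authors' deposited table called 32.3% of core promoter peaks and 39.7% of all peaks higher. With the authors' scaling limma called 40.3% of core promoter peaks higher and 0.197% lower, and with total scaling 8.47% and 18.3%. Rps12 was at 6.86 and 7.41 in A and 9.20 and 9.20 in B. On the level scale the groups were apart for all 3 genes. The B libraries also had fewer reads and a larger core promoter share than the A libraries, and the part of either in these values was not tested.

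In the second phase, the authors' deposited table called 8955 core promoter peaks higher in A and 0 higher in B, 38.3% against a background of 26.7% (0.00429% higher in B). limma on recovered reads called 0 core promoter peaks under quantile scaling, total scaling or the authors' scaling, with 158 under 0.05 unadjusted for the first of these. The pairs differed within groups: the variance ratio was 15.7 in A and 7.85 in B. Pld4 was at 7.21 and 6.35 in A against 6.77 and 4.61 in B, with a log2 fold of 2.21 in the authors' deposited table (adjusted p = 0.0242) and 1.11 ± 0.81 (SE) with limma (adjusted p = 1). Its groups overlapped on the level scale. Igf1r, the IGF-1 receptor, was at 6.86 and 6.46 in A against 6.02 and 5.20 in B, with 2.14 in the authors' deposited table. The others were Lhfpl2 (2.15), Klhl42 (2.15), Stra6l (2.11), Dnaaf9 (2.10), Nudt3 (2.09), Slc44a2 (2.07), the lncRNA Mexis (2.07) and Gramd1b (2.06), all at an adjusted p of 0.0242 in the authors' deposited table.

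The same lists were read in the second phase. In the authors' deposited table, 20 of 27 macrophage core promoters and 19 of 29 fatty acid promoters were called higher in A. So were 13 of 20 alternative activation promoters, and no member of these lists was called lower. The authors' deposited table called 38.3% of core promoter peaks and 26.7% of all peaks higher. Of 41 interferon response promoters it called 2, and of 37 inflammatory promoters 6. Srebf1 shows how the libraries lay: its level was 9.11 and 7.77 in A1 and A2 and 8.75 and 7.97 in B1 and B2, and its fold in the authors' deposited table was 1.35 (adjusted p = 0.0344). C1qb was at 8.46 and 6.18 in A against 8.20 and 6.33 in B, with 1.65 in the authors' deposited table (adjusted p = 0.0248). For both genes A1 and B1 were high and A2 and B2 low, so each group holds 1 high and 1 low library.

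Responses to stimulation were read from each second-phase library against the 4 rest-phase libraries, as a description. Of 41 interferon response promoters, 38 in A2 and 37 in B2 were above every rest-phase library, against 6 in A1 and 7 in B1. Of all core promoter peaks 14.9% in A2, 14.6% in B2, 8.74% in A1 and 16.7% in B1 were above every rest-phase library. The list's median difference from the rest-phase mean was 0.98 in A2 and 1.02 in B2, and -0.02 in both A1 and B1. Of 37 inflammatory promoters, 26 in A2 and 26 in B2 were above every rest-phase library, against 11 in A1 and 12 in B1. Over all core promoter peaks, 592 in A2, 668 in B2, 119 in B1 and 1 in A1 were more than 1 above every rest-phase library on the log2 scale. Those more than 1 below numbered 543, 1410, 955 and 16.

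Gbp5 was at levels of 5.12, 4.99, 4.51 and 4.67 at rest and 5.15, 8.07, 4.33 and 8.48 in the second phase, in the order A1, A2, B1 and B2. Irf1 was at 7.97, 8.02, 8.19 and 8.53, then 8.03, 9.67, 8.34 and 9.84. Isg15 was at 5.58, 5.79, 5.67 and 5.53, then 5.42, 7.84, 4.65 and 8.21. In all 3 genes A2 and B2 stood above every rest-phase library. A1 and B1 lay below the highest rest-phase library, except that Gbp5 in A1 was at 5.15 against 5.12. Acod1, which makes itaconate, was at 4.65 to 5.42 at rest and 5.74, 9.13, 6.02 and 9.39 in the second phase. The chemokine gene Ccl5 was at 3.21 to 4.91 and then 4.21, 8.59, 4.93 and 8.69. Nos2, the inducible nitric oxide synthase, was at 5.94 to 6.64 and then 6.96, 8.52, 7.12 and 9.19. For Acod1 and Nos2, A1 and B1 were also above the rest phase, by less than A2 and B2.

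**Figure D3:**
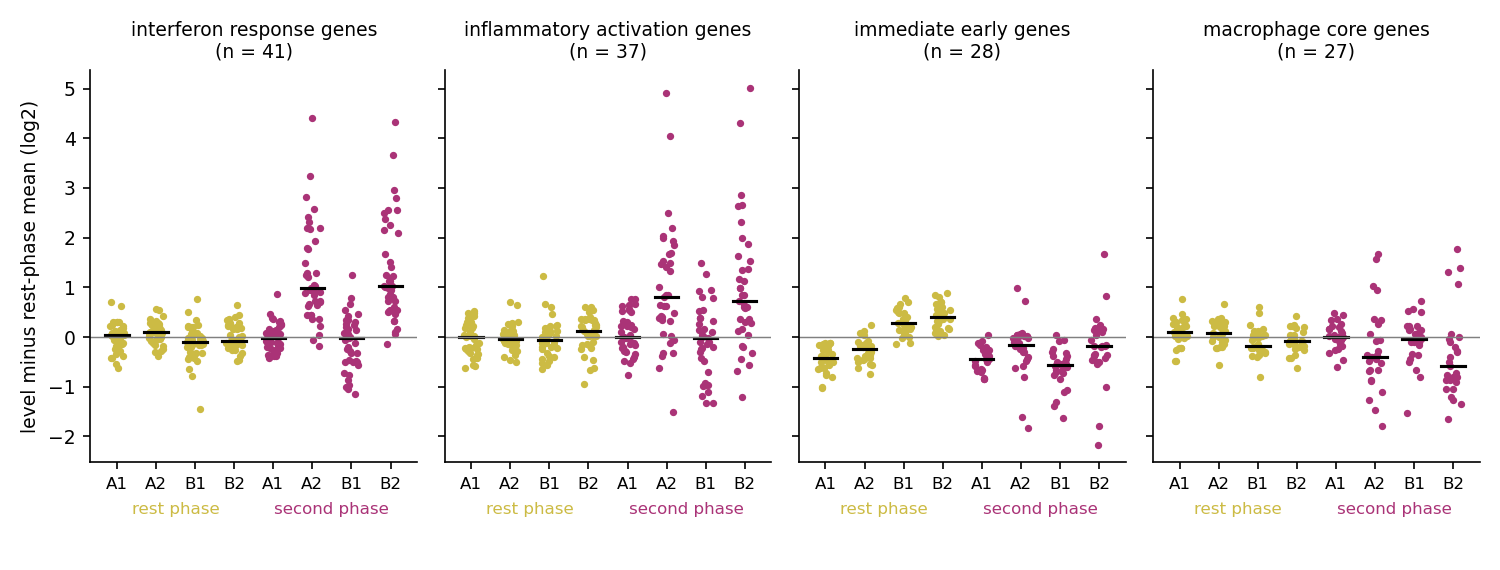
Level of each promoter minus its mean over the 4 rest-phase libraries (log2 scale) in every rest- and second-phase library, for 4 gene lists. Points are promoters and bars are list medians. The interferon list has a median of 0.98 in second-phase A2, 1.02 in B2 and -0.02 in A1 and B1.

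Tested over all 4 second-phase libraries (n = 4) against all 4 rest-phase libraries (n = 4), limma called 0 core promoter peaks and 0 of all 139557 peaks (background 0%), with 2555 core promoter peaks under 0.05 unadjusted. With the authors' scaling it called 9 core promoter peaks higher. Gbp5 had a log2 fold of 1.63 ± 0.75 (SE, limma adjusted p = 0.438) and Acod1 of 2.35 ± 0.67 (SE, limma adjusted p = 0.422). Neither passed.

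The interferon-stimulated response element was found in 3.44% of all RefSeq windows and in 287 matched core promoter peaks (3.07%). Of those 287, 14.3% in A2 and 15.0% in B2 were more than 1 above their rest-phase mean, against 1.39% in A1 and 0.348% in B1. Over all matched peaks the shares were 1.96%, 2.21%, 0.182% and 1.31%. Peaks with an AP-1 site (TGAGTCA, 5.20% of all windows, n = 419) passed that step in 8.11% of cases in A2 and 9.07% in B2. In A1 and B1 they did so in 0.477% and 2.63%. Other motifs lay on either side of the matched share in A2 and B2: TATA box 5.44% and 6.07%, gamma-activated site 4.68% and 4.52%, GC box 0.856% and 0.873%. The 4 second-phase libraries share the rest-phase mean, and the motif shares are descriptions.

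From the first to the rest phase more core promoter peaks became less open than more open with quantile scaling. limma called 2889 core promoter peaks higher and 7529 lower of 23341, against a background of 19.8% higher and 18.9% lower (38.8% in all) over 139557 peaks. The median log2 fold was -0.33 for core promoter peaks and 0.11 for other peaks. With total scaling 3880 were higher and 7031 lower, but with the authors' scaling 2568 were higher and 953 lower. The median of all peaks was 0.02 with quantile scaling, 0.30 with total scaling and 0.74 with the authors' scaling, and changes are relative to it. Core promoters lay below other peaks under each scaling (medians of -0.22 and 0.39 with total scaling, 0.24 and 0.83 with the authors').

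Losses lay closer to the start than gains. Of 13472 peaks over a start 9.67% were higher and 38.6% lower, and of 9869 peaks 1 to 1000 bp away 16.1% and 23.6%. CpG-rich peaks were higher in 5.14% and lower in 44.3% of cases, CpG-poor peaks in 15.6% and 30.5%. Larger falls had the opposite order: 2.40% of CpG-rich and 8.36% of CpG-poor peaks fell by more than 2 on the log2 scale. Over all 9340 matched peaks 8.48% were higher and 39.9% lower. Among motifs, the 190 peaks with the palindromic NRF1 site (0.971% of all windows), a motif of nuclear genes for mitochondrial proteins, were lower in 60.5% and higher in 1.58% of cases. Their median level was 8.30 to 8.51 in the first phase, 7.18 and 7.48 in rest-phase A and 7.93 and 7.94 in B. The 419 peaks with an AP-1 site were lower in 23.2% and higher in 19.3%, and the 342 with a PU.1 site (1052 of the 32851 windows) in 35.1% and 14.9%, the first of which is below the share over all matched peaks. The shares in this paragraph were read with quantile scaling only.

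The neutrophil, B cell and erythroid and megakaryocyte lists had the lowest medians of the 16 lists. For comparison, 12.4% of all core promoter peaks were higher and 32.3% lower, and 11.0% and 4.08% with the authors' scaling. All 16 neutrophil promoters measured were lower, with a median of -3.10 (all peaks 0.02), and with the authors' scaling 11 were. S100a9 was at 9.09, 9.12, 8.62 and 9.67 in the first phase, against 1.94, 2.54, 3.36 and 3.38 at rest, a log2 fold of -6.47 ± 0.40 (SE, limma adjusted p = 2.52e-07). S100a8 was at 8.84, 8.80, 8.51 and 9.61, then 6.16, 6.20, 7.17 and 6.84. Pglyrp1 was at 8.45, 8.38, 8.30 and 9.16, then 3.36, 4.04, 5.34 and 5.02 (-4.28, limma adjusted p = 3.66e-06). First-phase B2 was the highest of the phase for all 3 genes, and the phases did not overlap.

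Of 15 B cell promoters 13 were lower and 0 higher (median -2.85), and of 15 erythroid and megakaryocyte promoters 9 were lower and 1 higher. Cd79a was at 7.78, 7.82, 8.04 and 5.90 in the first phase, against 2.77, 2.89, 4.65 and 2.97 at rest. Pou2af1, a B cell co-activator, had a log2 fold of -4.40 and the globin gene Hbb-bt of -4.90 (limma adjusted p = 6.94e-05 and 2.05e-06). Vwf, the von Willebrand factor gene, was the erythroid and megakaryocyte promoter that rose (2.66, limma adjusted p = 2.30e-06). T and NK cell promoters were lower for 11 of 18 and higher for Klrb1c alone, and stem and progenitor promoters lower for 5 of 14 and higher for 3. With the authors' scaling 10 B cell promoters and 7 erythroid and megakaryocyte promoters were lower. The other lists held less well under it: 4 T and NK cell promoters were lower and 1 higher (median -0.32 instead of -1.23), and 2 stem and progenitor promoters were lower and 2 higher (median 0.31 instead of -0.48). The marker levels of other marrow cells moved with every first-phase comparison here, and their part in the results was not tested.

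Macrophage promoters moved in both directions, 11 of 27 higher and 6 lower. The shares were 19.8% and 18.9% over all peaks, and 12.4% and 32.3% over core promoter peaks. C1qc was at 5.59, 4.75, 6.13 and 5.70 in the first phase, against 8.59, 8.57, 8.70 and 8.44 at rest, a log2 fold of 3.01 ± 0.23 (SE, limma adjusted p = 8.11e-07). C1qb (2.73) and Cd14 (2.41) rose too, while Laptm5, a lysosomal protein of blood cells, fell by 1.32 on the log2 scale, Cebpb by 1.12 and the perforin-like Mpeg1 by 1.01. In the alternative activation list 6 of 20 rose and 3 fell, led by Igf1 (2.60) and the lipid receptor gene Trem2 (2.51). With the authors' scaling 6 macrophage and 8 alternative activation promoters were higher and 0 of either lower. Under that scaling the shares were 23.5% and 5.00% over all peaks, and 11.0% and 4.08% over core promoter peaks. The macrophage count is near the share of all peaks that were higher and above that of core promoter peaks.

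Of 29 fatty acid promoters 6 rose and 5 fell, shares near those of all peaks (19.8% and 18.9%). Over core promoter peaks the shares were 12.4% and 32.3%. With the authors' scaling 4 rose and 0 fell (23.5% and 5.00% of all peaks, 11.0% and 4.08% of core promoter peaks). Nothing is read from the list's count, and single members are described. Fabp4, a fatty acid binding protein, was at 4.71, 4.34, 4.99 and 5.31 in the first phase, against 7.32, 7.00, 7.42 and 7.28 at rest (2.31 ± 0.26, SE, limma adjusted p = 1.37e-05). The transporter Slc27a1 (1.65) and the nuclear receptor Pparg (1.57) also rose. Dgat2, which makes triglycerides, was at 8.53, 8.64, 8.45 and 8.58, then 6.91, 7.22, 7.19 and 7.35 (-1.49, limma adjusted p = 3.17e-05). The phases did not overlap for either Fabp4 or Dgat2. Fasn (0.10, limma adjusted p = 0.680) and Srebf1 (0.08, limma adjusted p = 0.847) did not pass.

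Osteoclast promoters were higher for 5 of 20 and lower for 8 (12.4% and 32.3% of all core promoter peaks). With the authors' scaling the counts were 4 and 2 (11.0% and 4.08% of all core promoter peaks). The gelatinase gene Mmp9, also active in neutrophils, was at 8.32, 8.25, 7.44 and 8.45 in the first phase, against 4.32, 3.85, 4.20 and 4.36 at rest (-3.91, limma adjusted p = 9.99e-07). Atp6v0d2, a proton pump subunit, rose by 1.60 and the fusion gene Dcstamp by 1.53. Among inflammatory promoters 8 of 37 rose and 9 fell, against 19.8% and 18.9% of all peaks and 12.4% and 32.3% of core promoter peaks. With the authors' scaling 5 rose and 0 fell (23.5% and 5.00% of all peaks, 11.0% and 4.08% of core promoter peaks). Ccl2 (2.71) and Ccl7 (2.36), which attract monocytes, rose most, and Acod1 (-2.22), Il12a (-2.01) and Il1b (-1.73) fell most.

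Ribosomal protein promoters were lower for 32 of 63 and higher for Rpl10a alone, but with the authors' scaling 1 was lower and 0 higher. Of all core promoter peaks 32.3% were lower and 12.4% higher, and with the authors' scaling 4.08% and 11.0%. Rpl19 was at 8.52, 8.54, 8.54 and 8.47 in the first phase, against 5.93, 6.62, 7.70 and 7.79 at rest (-1.60, limma adjusted p = 0.00324). The fall was larger in A1 and A2 of the rest phase. General transcription machinery promoters were lower for 15 of 45, led by Taf5 (-1.78), a TFIID subunit, and higher for 3, but with the authors' scaling for 1 and 1. The count of 15 is near the share of all core promoter peaks, and nothing is read from it. Interferon response promoters were lower for 17 of 41 and higher for 2, Mx2 (1.70) and Xaf1 (0.83), but with the authors' scaling 0 were lower and 1 higher. Immediate early promoters were higher for 4 of 28 and lower for 2, and with total scaling for 2 and 10. Cell cycle promoters were higher for 5 of 31 and lower for 6, led by Cdt1 (1.27), which licenses replication, and Bub1 (-1.18), a checkpoint kinase. The cell cycle counts are near the shares of all peaks (19.8% and 18.9%). They became 1 and 17 with total scaling and 1 and 0 with the authors' scaling. Total scaling called 16.6% of all core promoter peaks higher and 30.1% lower.

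**Figure D4:**
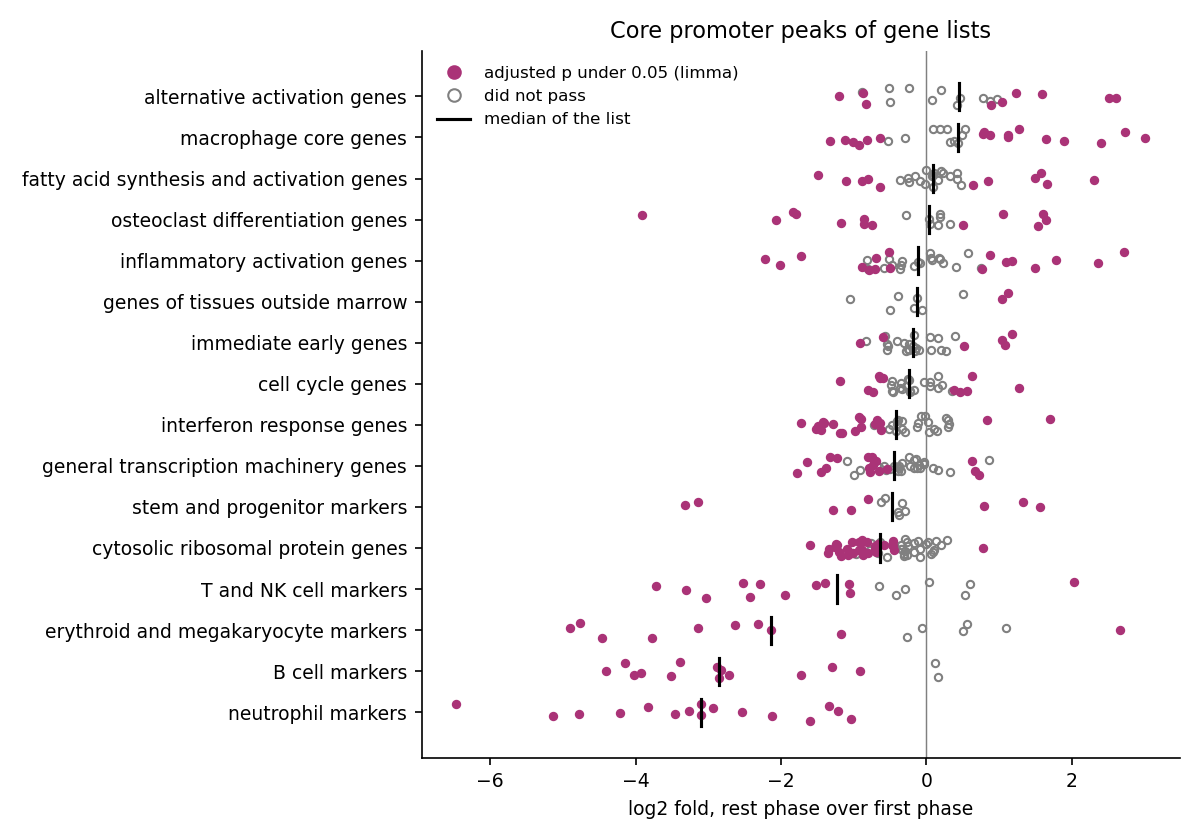
Log2 fold of the rest phase over the first phase for each gene's core promoter peak, by list. Filled points passed an adjusted p of 0.05 in limma, open points did not and bars are list medians, which run from -3.10 (neutrophil markers) to 0.44 (alternative activation genes).

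Among all core promoter peaks at or above the median level, the largest rises were at Xpot, the tRNA export receptor, Dnajc18, Napg and Ubr2, a ubiquitin ligase. The Xpot peak lay 658 bp downstream of its start, at 3.82, 3.26, 3.83 and 4.22 in the first phase, against 8.98, 8.96, 8.16 and 8.18 at rest, a log2 fold of 4.82 ± 0.30 (SE, limma adjusted p = 2.81e-07). Manba, a lysosomal mannosidase, was at 5.35, 5.08, 4.64 and 4.64, then 8.46, 8.51, 8.51 and 8.42 (3.72). Annexin A1, Anxa1, rose by 3.64. The phases did not overlap at these peaks. Zc3h14 (3.95), Trim47 (3.83), R3hcc1l (3.82) and AU022793 (3.81) completed the list of rises.

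With the same limit on level, the largest falls after Pglyrp1 were at Sidt2 (-4.06), Ggt1 (-3.74), Sirpd (-3.65), Fanca (-3.51), 5830428M24Rik (-3.37), Slc2a3 (-3.25), Arhgef18 (-3.21), Ifrd1 (-3.14) and Satb1 (-3.14). S100a9, Hbb-bt and Pou2af1 (above) fell by more than Pglyrp1 but are not in this ranking. Slc2a3, the glucose transporter GLUT3, was at 8.50, 8.53, 8.26 and 8.97 in the first phase, against 5.33, 5.57, 5.43 and 5.46 at rest (limma adjusted p = 7.08e-07). Satb1, a chromatin organiser of lymphoid cells, was at 7.92, 7.91, 7.86 and 8.20, then 4.47, 5.02, 4.91 and 5.22. Both stayed low in the second phase, at 4.93 to 5.35 and 3.65 to 4.65.

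**Figure D5:**
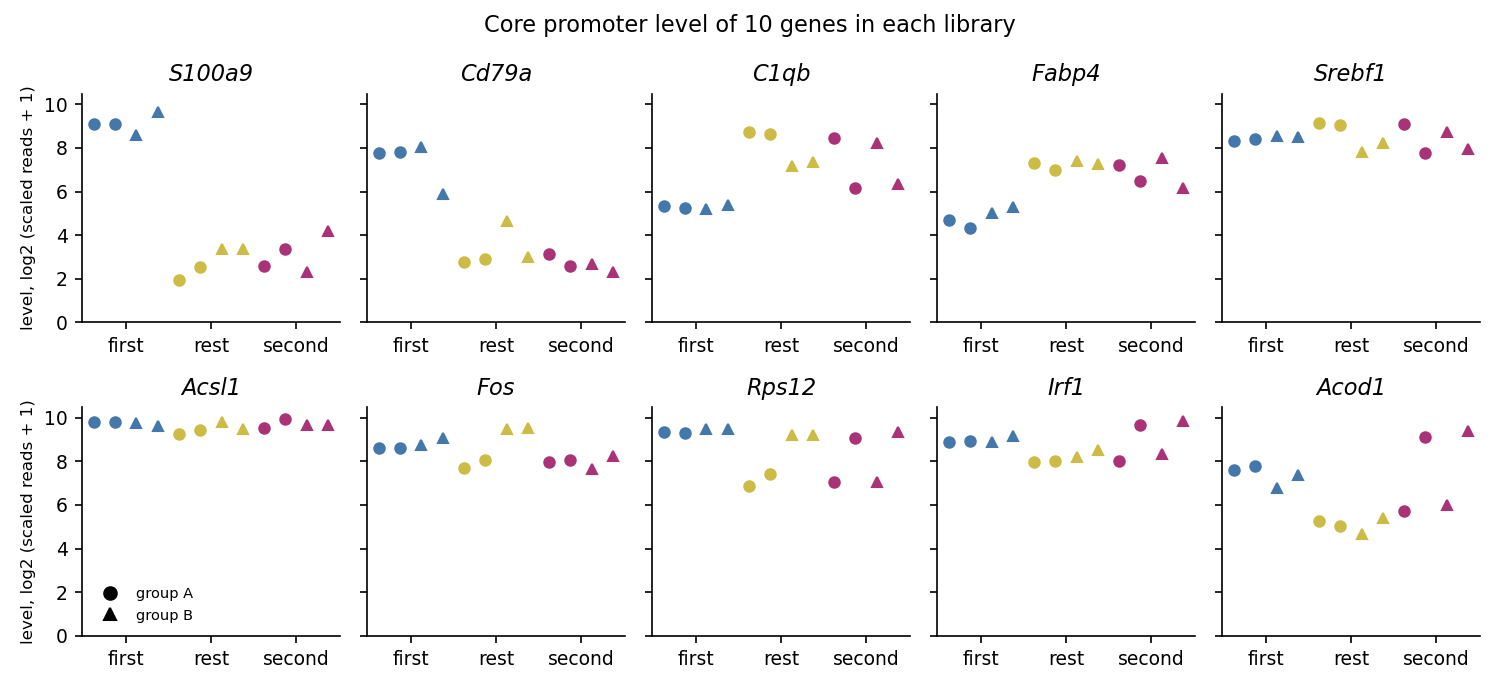
Level (log2 of scaled reads + 1) of the core promoter peak of 10 genes in each of the 12 libraries, with circles for group A and triangles for group B, ordered A1, A2, B1 and B2 in each phase. S100a9 falls from between 8.62 and 9.67 to between 1.94 and 3.38, and Acsl1 stays between 9.28 and 9.96 in all 12 libraries.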

How the data were processed

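The authors deposited 1 table per phase with the same 139999 peaks. Per the file headers and values, the authors gave for each group a log2 mean of scaled reads, and for each peak a shrunken log2 fold, here turned to A over B, with its p-value before and after adjustment. In the second phase 38000 peaks, 2712 of them at core promoters, have an adjusted p of 1. Per the submitters' processing notes the build was mm10, and the tools were DESeq2, DiffBind 3.14.0, MACS2, HOMER 5.1, Bowtie2 2.5.4, bedtools 2.28.0, Picard 3.2.0 and deepTools 3.2.1. Their roles, a Tn5 offset and read filters are not stated there.

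Each mean was solved for the whole reads of its 2 libraries. All values above the floor had exactly 1 solution, and the 442 peaks listed at 0 in some group were dropped. Libraries are numbered by the worth of a read, not by the labels' replicate numbers. Within phases the authors' deposited calls (adjusted p under 0.05) are the main result. Between phases, limma 3.58.1 (R 4.3.3, empirical Bayes with a trend) was fitted to log2 (quantile-scaled reads + 1) with groups pooled and Benjamini-Hochberg adjustment over 139557 peaks. On simulated data with 200 planted peaks, 4-fold changes were called in 33%, 75% and 68% of cases within the first, rest and second phases. Between phases they were called in 100% of cases, and 2-fold changes in 24% (rest against first) and 36% (second against rest). Every simulation assumed a dispersion of 0.05. Second-phase pairs had variance ratios of 15.7 and 7.85 and first-phase B of 6.97, a spread that was not simulated. The shares called may therefore be too high for comparisons with those libraries. Shares were compared with exact permutation tests (scipy 1.17.1).

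Named genes are the 10 largest folds per direction among called peaks at or above the median level, 1 peak a gene, up to 3 list members per direction, the extremes of level and Acsl1. Other genes named, among them Fos, Zfp36, Rps12, Gbp5, Irf1, Isg15, Ccl5 and Nos2, were chosen after their values were seen. The members and lists were chosen with earlier results of these data known. Of 30 genes of tissues outside marrow, 9 had a core promoter peak, and 2 rose (Pax6 and Gfap) and 0 fell from the first to the rest phase. Where lists are counted, a gene stands for its core promoter peak nearest the start. Antisense and overlapping genes at a start share the peak.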

Additional observations from a re-analysis of the deposited data

Results flagged for a closer look

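Of 134 values examined for a library far from the rest of its phase, 8 had one, and chance gives about 1 in 20. The measure is the gap of the end library to its nearest neighbour over the whole range of the 4 libraries. The median level of interferon response promoters in the rest phase gave 0.886, with A2 at 7.08 and the other 3 at 6.87 to 6.89. In the rest phase Ggt1 gave 0.970 (B1 high, 5.03 against 4.50 to 4.52) and Vmn2r30 gave 0.955 (B2 low, 2.14 against 3.36 to 3.42). Among the most open promoters, Mtmr4 gave 1 in both the rest phase (A1 high, 10.77 against 10.73) and the second phase (A2 high, 10.77 against 10.73), and Osbp gave 1 in the rest phase (B1 low, 10.46 against 10.64). After quantile scaling the most open promoters share the same few top values, so libraries can tie there, which brings the measure to 1. In the second phase Sp1 gave 0.838 (B1 low, 10.46 against 10.55 to 10.57) and Pglyrp1 gave 0.858 (B2 high, 4.70 against 4.32 to 4.38).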

How the results depend on the processing

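No paired analysis was possible because the table columns carry no replicate numbers of the labels. Depth limits single peaks: the median core promoter peak held 28 reads in second-phase B1 and 29 in first-phase A1.

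Within the rest phase the count of core promoter peaks called was 2367 at a deposited adjusted p under 0.01, 3744 for peaks over a start and 3932 with limma and quantile scaling (928 higher in A, 3004 lower). It was 6245 with total scaling (1976 higher, 4269 lower) and 9459 with the authors' scaling (9413 higher, 46 lower). Leaving out 1 library gave 0 to 0, with 1 library left in a group and its spread taken from the other. Within the second phase it was 0 at the stricter threshold, 5580 for peaks over a start, and 0 with limma under quantile, total or the authors' scaling, also without any 1 library (0 to 0). Within the first phase all 9 alternatives gave 0.

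For the rest against the first phase the count was 3521 with the authors' scaling (2568 higher, 953 lower), 6827 at an adjusted p under 0.01 and 6502 for peaks over a start. It was 7589 to 10583 without 1 library or the summed pair, and 11558 with that pair counted as 2. For the second against the rest phase it was 9 with the authors' scaling and 0 in the other settings run. The share of reads from the first to the rest phase differed by -20.9 to -15.9 points without 1 library, in designs where the adjusted p cannot pass, and by -18.4 with the pair counted as 2.

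Single genes changed sign in a few settings. With limma and quantile scaling in the second phase, leaving out A1 gave -0.36 for Mexis, -0.22 for Gramd1b, -0.21 for Myc, -1.05 for C1qb, -0.52 for Srebf1 and -0.11 for Acsl3, and leaving out B2 gave -0.00387 for Pld4, -0.47 for Mexis, -0.36 for Myc, -0.82 for C1qb, -0.24 for Srebf1 and -0.32 for Acsl3. From the first to the rest phase Fosl1 was at 0.020 with the authors' scaling and Cenpa at -0.063 with total scaling. The cause was not tested. Of the values of named genes under the alternatives, 1996 kept direction and side of the threshold, 290 lost the call and 20 gained one.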
